A study of Homo sapiens with 2 samples.

Results

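The seed family of miR-130, miR-301 and miR-454, called the miR-130 family here, is a group of human miRNAs that carry the same seed, the stretch of bases 2 to 8 from the 5′ end by which a miRNA pairs with its targets. Its 5 precursors, hsa-mir-130a, hsa-mir-130b, hsa-mir-301a, hsa-mir-301b and hsa-mir-454, were taken by name from the count tables, where they are 5 of 1038 precursors with any count, and from a genome-wide list of read stacks, where they are named in sense by 5 of 502547 stacks. The data are small RNAs bound to Argonaute. FLAG-tagged AGO3 or FLAG-tagged AGO2 was expressed in HEK293 T-Rex cells, which derive from human embryonic kidney, and pulled down with magnetic beads against the tag. The sources used here do not give whether each line is a single clone. There was 1 AGO3 library and 1 AGO2 library. The 3′ adapter also differed between the libraries, so that adapter and protein cannot be told apart, no difference has a replicate check and no test between the proteins was made. Precursors took 3055417 of 4667236 reads (65.5%) in AGO3 and 3485257 of 6674064 reads (52.2%) in AGO2.

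A miRNA is cut from a hairpin by Drosha and Dicer, and of its arms usually 1 is kept by an Argonaute protein, which it guides to messenger RNAs with a match to the seed. In this family the 3′ arm is the guide. Members have been studied as repressors of PPARG, the master regulator of fat cell formation, and of homeobox genes that restrain blood vessel growth. The precursors hsa-mir-301a and hsa-mir-454 lie in the gene of SKA2, a component of the spindle and kinetochore complex, and hsa-mir-301b and hsa-mir-130b lie side by side in the annotated span of PPIL2.

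The guide arms of 4 members were found in RefSeq (build GRCh38.p14), and are shown because the shared seed defines the family. Capitals mark bases 2 to 8.
miR-130b-3p: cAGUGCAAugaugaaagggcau
miR-301a-3p: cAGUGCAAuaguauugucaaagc
miR-301b-3p: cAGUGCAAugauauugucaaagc
miR-454-3p: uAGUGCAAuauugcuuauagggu
These lie at chr22:21653354-21653375 (plus strand), chr17:59151149-59151171 (minus strand), chr22:21653025-21653047 (plus strand) and chr17:59137787-59137809 (minus strand). The guide arm of hsa-mir-130a and the 5′ arm of hsa-mir-301b had no entry, and 8 of the 10 arms of the family were matched in all. All 4 arms carried AGUGCAA at bases 2 to 8, as did 6 of 2370 mature human miRNA names in the table (0.253%). The other names were miR-3666 and miR-4295, shown as the remaining carriers of the seed among these names, which lack the guide arm of hsa-mir-130a.
miR-3666: cAGUGCAAguguagaugccga
miR-4295: cAGUGCAAuguuuuccuu
Neither of their precursors was listed in the AGO3 or the AGO2 table.

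The arms fell into a close pair and the rest. Counted from 1 at the 5′ end, miR-301a-3p and miR-301b-3p differed by A10G and G11A, with the base of miR-301a-3p first, and were the same at 21 of 23 positions (91.3%), seed included, and at 13 of the 15 positions after base 8. Aligned from the 5′ end without gaps, miR-130b-3p matched miR-301b-3p at 5 and miR-301a-3p at 3 of the 14 positions after base 8. The arm of miR-454 starts with U rather than C and matched miR-301a-3p at 6 of the 15 positions after base 8. The sources used here do not say how reads that fit more than 1 precursor were counted, so the counts of hsa-mir-301a and hsa-mir-301b may share reads.

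The counts are given per precursor and are not split by arm. The hairpin of hsa-mir-301a is shown for the place of its arms, with the 5′ arm and then the 3′ arm in capitals (chr17:59151136-59151221, minus strand, 86 bases, GRCh38.p14).
mir-301a hairpin: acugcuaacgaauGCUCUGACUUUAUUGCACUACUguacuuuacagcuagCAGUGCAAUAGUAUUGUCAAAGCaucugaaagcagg
The 5′ arms are shown because some hold the reverse complement of the seed, UUGCACU, which is in capitals where it was found.
miR-130a-5p: gcucuuuucacauugugcuacu
miR-130b-5p: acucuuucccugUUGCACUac
miR-301a-5p: gcucugacuuuaUUGCACUacu
miR-454-5p: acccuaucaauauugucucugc
It was present in 2 of the 4 matched 5′ arms, those of hsa-mir-130b and hsa-mir-301a, and in 8 of 2370 mature names (0.338%). The search was on the RNA strand alone, and these letters are also part of the guide arms of miR-25, miR-92a and miR-92b.

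The family as a whole took a slightly larger share of the AGO3 library, and most of that difference came from hsa-mir-130b. Its 5 precursors had 23608 counts in AGO3 and 22049 counts in AGO2. These made up 0.773% (0.763 to 0.783) of the AGO3 counts and 0.633% (0.624 to 0.641) of the AGO2 counts, a log2 ratio of AGO3 over AGO2 of 0.29 (0.26 to 0.32). Intervals are exact (Clopper-Pearson) 95% intervals on reads, and they cover counting error only, because there is 1 library per protein. PCR copies of a molecule cannot be told from separate molecules, so all these intervals may be too narrow even for counting error. Without hsa-mir-130b the summed log2 ratio was 0.06, and without hsa-mir-130a it was 0.41. The size of the family's ratio also depended on the scaling. It was 0.10 with median-of-ratios scaling, 0.13 with the TMM scaling of edgeR and 0.61 with shares of all reads. With the 10 most abundant precursors left out of the totals it was 0.23.

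The most abundant member was hsa-mir-130b, whose guide miRNA is known from stem cells and tumours. It had 13888 counts in AGO3 and 11414 in AGO2, that is 4545 (4470 to 4621) CPM in AGO3 and 3275 (3215 to 3335) CPM in AGO2, where CPM are counts scaled to a precursor total of 1000000. Its log2 ratio of 0.47 (0.44 to 0.51), a 1.39-fold difference, was the highest of the family. It ranked 50 among all precursors in AGO3 and 66 in AGO2. The precursor hsa-mir-130a, whose guide represses the homeobox genes GAX and HOXA5 in endothelial cells, had 5707 counts in AGO3 and 6647 in AGO2. At 1868 (1820 to 1917) CPM in AGO3 and 1907 (1862 to 1954) CPM in AGO2, its log2 ratio was −0.03 (−0.08 to 0.02), which includes equal shares. With shares of all reads in place of counted reads it was 0.30. The levels of hsa-mir-130b thus lay apart between the libraries by more than counting error under this scaling, and those of hsa-mir-130a did not.

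For hsa-mir-301a, which is known to activate NF-kB signalling by repressing its inhibitor NKRF, the counts were 2527 in AGO3 and 2283 in AGO2. Levels of 827 (795 to 860) CPM in AGO3 and 655 (628 to 682) CPM in AGO2 gave a log2 ratio of 0.34 (0.25 to 0.42). Its near copy hsa-mir-301b had 1261 counts in AGO3 and 1385 in AGO2, or 413 (390 to 436) CPM in AGO3 and 397 (377 to 419) CPM in AGO2. The log2 ratio of hsa-mir-301b was 0.05 (−0.06 to 0.17), which includes equal shares and turned to −0.14 with median-of-ratios scaling, −0.11 with the TMM scaling of edgeR and −0.0019 when the 10 most abundant precursors were left out of the totals. The rarest member, hsa-mir-454, had 225 counts in AGO3 and 320 in AGO2, or 73.6 (64.3 to 83.9) CPM in AGO3 and 91.8 (82.0 to 102.4) CPM in AGO2. Its log2 ratio was −0.32 (−0.57 to −0.07), the lowest of the family, and 0.01 with shares of all reads.

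**Figure D1:**
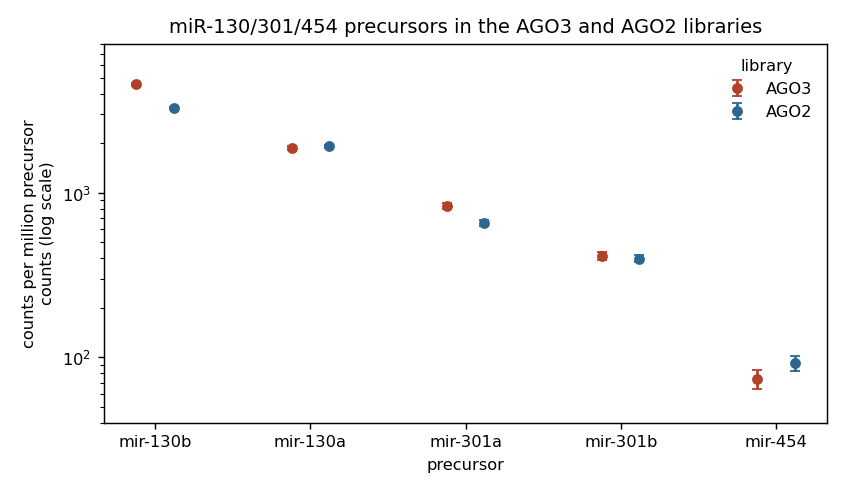
Level of each precursor in CPM (log axis) in the AGO3 library (red) and the AGO2 library (blue), with exact 95% intervals for counting error. From hsa-mir-130b at 4545 in AGO3 and 3275 in AGO2 down to hsa-mir-454 at 73.6 in AGO3 and 91.8 in AGO2, the order of the members was the same in both libraries.

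None of the 5 members was at least 2-fold apart between AGO3 and AGO2. The background was the 411 precursors that reached 100 counts when the libraries are added, all members among them. Of these 24.6% were at least 2-fold apart, 15.8% higher and 8.76% lower in AGO3. The counting interval excluded equal shares for 3 of the 5 (hsa-mir-130b, hsa-mir-301a and hsa-mir-454), whereas it did so for 84.7% of the 411. Of the members 3 had a log2 ratio above 0 and 2 below 0, and of all 411 precursors 219 lay above and 192 below. The median was 0.05 in the family and 0.08 over the 411, and the SD across precursors was 0.31 in the family and 1.02 over the 411. The ratios of the members ranged from percentile 33.3 (hsa-mir-454) to percentile 66.7 (hsa-mir-130b) of the 411. The members are few, and the hsa-mir-301a and hsa-mir-301b counts may share reads, so the narrow spread is a description of these libraries.

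**Figure D2:**
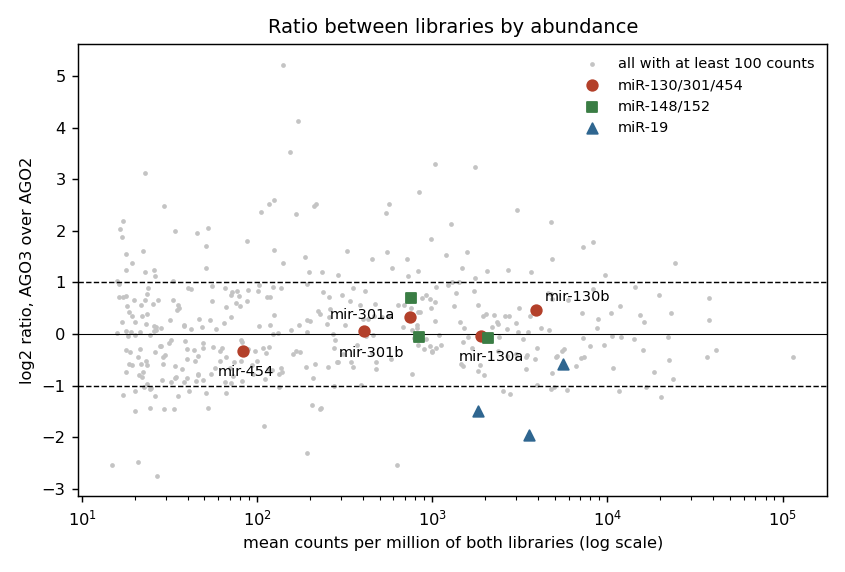
Log2 ratio of AGO3 over AGO2 (vertical axis) against the mean level of both libraries in CPM (log axis) for the 411 precursors with at least 100 counts; dashed lines mark a 2-fold difference. The 5 members (red circles) lie between −0.32 and 0.47. Of the green squares, mir-148a and mir-148b lie within this range and mir-152 lies above it at 0.70. Of the 3 miR-19 precursors (blue triangles), 2 lie below the lower line.

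Families whose seeds overlap that of the miR-130 family by a shift of a single base were set beside it. Their guide arms are shown with bases 2 to 8 in capitals.
miR-148a-3p: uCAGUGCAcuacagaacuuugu
miR-152-3p: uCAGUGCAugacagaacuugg
miR-19a-3p: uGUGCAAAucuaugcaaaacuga
miR-19b-3p: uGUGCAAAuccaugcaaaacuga
The miR-148a and miR-152 arms hold CAGUGCA and the miR-19 arms GUGCAAA at the bases where the miR-130 family holds AGUGCAA. The family of miR-148 and miR-152, known as a repressor of the DNA methyltransferase DNMT1, had a median log2 ratio of −0.05 over 3 precursors, with mir-152 at 0.70, mir-148b at −0.05 and mir-148a at −0.08. The miR-19 precursors, which belong to the growth-promoting cluster of miR-17 and miR-92a and its paralogue, were at −0.57 (mir-19a), −1.49 (mir-19b-2) and −1.96 (mir-19b-1), and their summed share was 0.689% in AGO3 and 1.501% in AGO2. The copies of mir-19b give the same guide and may share reads. The summed log2 ratio was 0.29 for the miR-130 family, 0.09 for miR-148 and miR-152 and −1.12 for miR-19, and with 1 library per protein these differences were not tested.

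Within each library the members kept a fixed order, hsa-mir-130b above hsa-mir-130a, hsa-mir-301a, hsa-mir-301b and hsa-mir-454, and the intervals of neighbours in this order did not overlap. In AGO3, hsa-mir-130b made up 58.8% (58.2 to 59.5) of the family's counts, hsa-mir-130a 24.2% (23.6 to 24.7), hsa-mir-301a 10.7% (10.3 to 11.1), hsa-mir-301b 5.34% (5.06 to 5.64) and hsa-mir-454 0.953% (0.833 to 1.09). In AGO2, hsa-mir-130b made up 51.8% (51.1 to 52.4), hsa-mir-130a 30.1% (29.5 to 30.8), hsa-mir-301a 10.4% (9.96 to 10.8), hsa-mir-301b 6.28% (5.96 to 6.61) and hsa-mir-454 1.45% (1.30 to 1.62). The share of hsa-mir-130b was thus larger in AGO3 and those of hsa-mir-130a, hsa-mir-301b and hsa-mir-454 smaller, beyond counting error, whereas the intervals of hsa-mir-301a overlapped. Shares of a family total are not independent, because a larger share of hsa-mir-130b lowers the others. As shares of all precursor counts, hsa-mir-130a (log2 ratio −0.03) and hsa-mir-301b (0.05) had intervals that include equal shares.

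Ratios between members inside a library do not depend on how the libraries are scaled. In the chr22 pair, hsa-mir-130b had 11.01 times the counts of hsa-mir-301b in AGO3 and 8.24 times in AGO2. The log2 of the AGO3 ratio over the AGO2 ratio was 0.42 (0.30 to 0.54, exact conditional interval of the odds ratio). In the SKA2 pair, hsa-mir-301a had 11.2 times the counts of hsa-mir-454 in AGO3 and 7.13 times in AGO2, a log2 difference of 0.65 (0.39 to 0.92). In each pair the more abundant hairpin was further ahead of its neighbour in AGO3, which follows from the log2 ratios of the members given above. This was not particular to neighbours. From separate loci, hsa-mir-130b over hsa-mir-130a was at 0.50, while hsa-mir-130a over hsa-mir-301a went the other way at −0.37. Over all 10 pairs of members the interval excluded equal ratios for 9, the exception being hsa-mir-130a over hsa-mir-301b at −0.08 (−0.21 to 0.04). By a large-sample interval this was so for 79.8% of the 84255 pairs among the 411 precursors, and likewise for 9 of the 10 pairs of members, which share members and are not independent. None of the 10 was at least 2-fold apart, against 44% of the 84255. That follows from the range of the members' log2 ratios given above and adds nothing to it. The widest was hsa-mir-130b over hsa-mir-454, with 61.7 in AGO3 and 35.7 in AGO2, a log2 difference of 0.79 (0.54 to 1.05).

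The read stacks show where in the genome the reads of the family fell. A stack is a run of overlapping reads on 1 strand, its positions are in build hg19, and the libraries are pooled, so that AGO3 and AGO2 cannot be separated there. The sources used here do not say which libraries these were, and the stacks hold 6.05 times the reads of the AGO3 and AGO2 libraries together. Each member had a single sense stack. The stack of hsa-mir-301a (chr17:57228506-57228594, minus strand) had 420736 reads and that of hsa-mir-454 (chr17:57215144-57215231, minus strand) 96938 reads. Both lie in an intron of SKA2 with 13274 bases between them. The stack of hsa-mir-301b (chr22:22007258-22007359, plus strand) had 93848 reads, and that of hsa-mir-130b (chr22:22007585-22007671, plus strand) had 238965 reads and began after a gap of 225 bases. Both carry the annotation of PPIL2, and beside their own exons they overlap another annotated transcript, hsa-mir-301b in its intron and hsa-mir-130b across an intron and an exon. The stack of hsa-mir-130a (chr11:57408664-57408768, plus strand) had 297004 reads, carries the annotation of the gene AP000662.4 and lies in an intron of an annotated transcript.

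The stacks of the members were close in length and in edits per read, and differed in how their reads were spread. They were 87 to 105 bases long, against a median of 82 bases over 174 stacks with at least 10000 reads that name a single precursor, so that each could span both arms of its hairpin. Differences from the reference, counted as edits, came to between 0.136 (hsa-mir-301b) and 0.160 (hsa-mir-301a and hsa-mir-454) per read, against a median of 0.159 over the 174. Each stack held 3327 (hsa-mir-454) to 8138 (hsa-mir-301a) distinct read sequences, and the reads per distinct sequence ran from 24.1 (hsa-mir-301b) to 75.2 (hsa-mir-130a). The entropy score of the authors' list, which per its field names combines the read profile and the read sequences, ran from 1.62 (hsa-mir-130b) to 2.42 (hsa-mir-130a), against a median of 1.57 over the 174. Antisense reads were almost absent, with 2 single-read stacks opposite hsa-mir-130b and none opposite the other 4 members.

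The pooled stacks ordered the members otherwise than the counts did. There hsa-mir-301a led with 36.7% of the family's stack reads, followed by hsa-mir-130a with 25.9%, hsa-mir-130b with 20.8%, hsa-mir-454 with 8.45% and hsa-mir-301b with 8.18%. The rarest member by counts, hsa-mir-454, had 177.9 stack reads for each count in AGO3 and AGO2 together, the most of the 326 precursors with a stack of their own and at least 100 counts. Over these 326 the median was 6.32 stack reads per count, and 80% of them fell between 1.15 and 35.6. They include precursors whose copies may share reads, such as mir-19b-2. The neighbour of hsa-mir-454 in SKA2, hsa-mir-301a, had 87.5 and ranked 6 of 326. The other members had 35.5 (hsa-mir-301b), 24.0 (hsa-mir-130a) and 9.44 (hsa-mir-130b), so that all 5 were above the median and both SKA2 hairpins lay above the upper of these bounds.

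The same gap between counts and stack reads can be written as ratios between members, which hold no further evidence. The stack reads of hsa-mir-130b were 2.47 times those of hsa-mir-454, against ratios in counts of 61.7 in AGO3 and 35.7 in AGO2. For hsa-mir-301a over hsa-mir-454, whose hairpins share a host gene, the stack ratio was 4.34, against 11.2 in AGO3 and 7.13 in AGO2. For hsa-mir-301a over hsa-mir-301b, the close copies, it was 4.48, against 2.004 in AGO3 and 1.65 in AGO2. The family as a whole held 1147491 stack reads, 1.67% of all stack reads and 2.17% of those in stacks that name a precursor, which is a larger share than in either count table. Among the overlapping-seed families, mir-19a also had a high value with 118.2 stack reads per count, and mir-148b had 36.8, mir-148a 30.6 and mir-152 1.82. The value of mir-19b-2 was 0.037. Its copy mir-19b-1 was not among the precursors with a stack of their own, and the copies may share reads. The value of mir-19b-2 alone therefore cannot be set against that of mir-19a. What sets the stack reads and the counts apart was not tested.

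**Figure D3:**
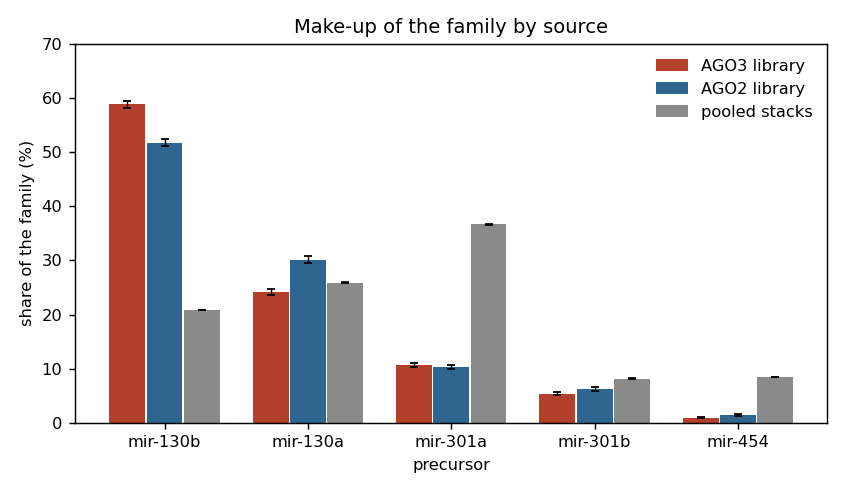
Share of each member in the family's counts in the AGO3 library (red) and the AGO2 library (blue) and in the family's reads in the pooled stacks (grey), in percent with exact 95% intervals for counting error. In the libraries hsa-mir-130b leads with 58.8% in AGO3 and 51.8% in AGO2, while in the stacks hsa-mir-301a leads with 36.7%.

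**Figure D4:**
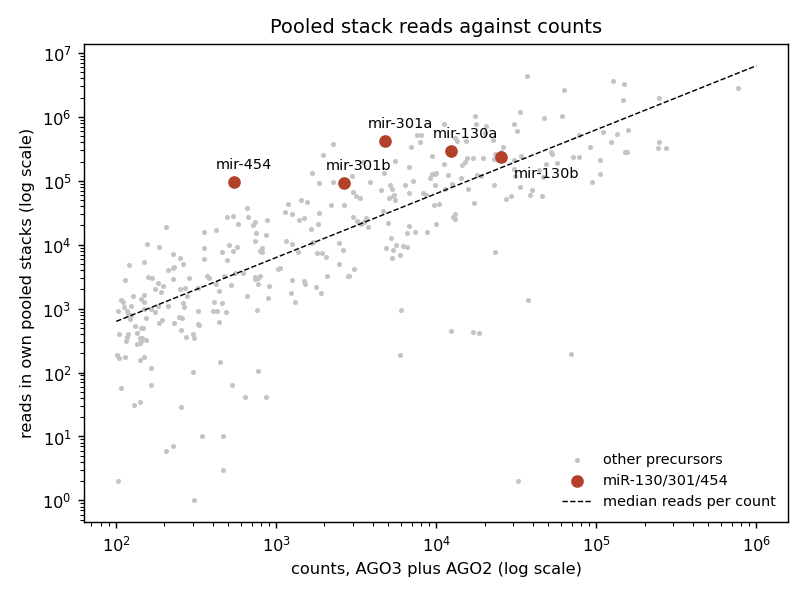
Reads in a precursor's own pooled stacks against its counts in AGO3 and AGO2 together, both on log axes, for 326 precursors; the dashed line marks the median of 6.32 stack reads per count. The 5 members (red) lie above the line, and hsa-mir-454 has the highest value of all at 177.9 stack reads per count.

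The precursors with levels most like those of each member were found by the distance between log2 CPM values of AGO3 and AGO2, over these libraries alone and among precursors with at least 1000 counts. For hsa-mir-130a the nearest was mir-148a of the overlapping-seed family, at a distance of 0.19, and then mir-192 at 0.28. The precursors nearest to hsa-mir-130b were mir-193b at 0.18 and mir-296 at 0.31. Those nearest to hsa-mir-301a were mir-1273d at 0.11 and mir-9-3 at 0.12, and those nearest to hsa-mir-301b were mir-548d-2 at 0.10 and mir-450a-2 at 0.17. Several of these have copies or relatives in the genome and may share reads. For hsa-mir-454, which itself lies under the minimum, the nearest above it were mir-1273a at 1.33 and mir-627 at 1.34. Closer precursors under the minimum were left out, such as mir-1273c with 237 counts in AGO3 and 291 in AGO2. The distances of hsa-mir-454 thus do not show that it lacks a close match. No member was among these nearest precursors of another. The minimum barred hsa-mir-454 from being named, and the levels of the others lay apart as given above, so this adds nothing on their likeness.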

How the data were processed

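Per the file headers, the authors deposited 1 raw count per miRNA precursor and library with the library's reads in all and mapped; the counts sum to the mapped reads. The deposited stack list gives the reads of each stack as a count, with edits and an entropy score. The submitters' processing notes name Bowtie2 2.1.0 and hg19. The sources used here do not give the miRBase release, the handling of the pair of random 5′ bases per read or the use of strand in the counts.

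Log2 ratios of AGO3 over AGO2 compare shares of the library's precursor counts after a pseudocount of 0.5, itself scaled to library size, is added. A summed count of at least 100 put a precursor into the background. The computation was tested on simulated data. The named precursors are the members, carriers of the same or an overlapping seed, and for each member the 2 precursors with the most similar levels. The members and lists were chosen with earlier results of these data known. The stack near mir-301a and comparisons of stack reads with counts were chosen after their values were seen. Alternatives covered scaling (median of ratios, TMM of edgeR 4.0.16, all reads, totals without the 10 most abundant), pseudocount and count minimum. Computation used R 4.3.3, matplotlib 3.10.9, scipy 1.17.1, pandas 2.3.3, numpy 2.4.6 and Python 3.11.15.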

Additional observations from a re-analysis of the deposited data

How the results depend on the processing

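Other scalings shift every precursor by the same amount: the log2 ratios moved by −0.19 with median-of-ratios scaling, −0.16 with TMM, 0.33 with all reads of the library and −0.06 with totals without the 10 most abundant precursors. With median of ratios mir-130a was at −0.22, mir-130b at 0.28, mir-301a at 0.15, mir-301b at −0.14 and the family's sum at 0.10. With TMM they were at −0.19, 0.31, 0.18, −0.11 and 0.13 in the same order. With all reads they were at 0.30, 0.80, 0.66, 0.38 and 0.61, and mir-454 was at 0.0078. Without the 10 most abundant precursors mir-130a was at −0.087, mir-130b at 0.42 and the sum at 0.23. The sum was 0.41 without mir-130a and 0.060 without mir-130b. The precursors at least 2-fold apart numbered 436 of 1038 (42.0%) with no minimum on counts, 184 of 638 (28.8%) with a minimum of 20 and 54 of 221 (24.4%) with a minimum of 1000. These values follow from the scaling, the members summed or the precursors admitted. The other 31 values stayed within counting error, or within 1.5 times for counts of precursors, and no member was at least 2-fold apart under any scaling or pseudocount tried. Depth limits mir-454 most, with 545 counts in all. No paired analysis was possible because there is 1 library per protein.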

Other observations

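The hairpins held nearly all reads on their strand of the host genes. In SKA2, 28 other sense stacks held 919 reads, against 420736 for mir-301a and 96938 for mir-454, and in PPIL2, 34 other sense stacks held 50 reads. Of the SKA2 reads outside the hairpins, 873 lay in a single stack of 103 bases (chr17:57228817-57228919, hg19, minus strand), which was chosen after its values were seen. It lies 222 bases upstream of the mir-301a stack in the direction of transcription, carries the annotation of SKA2 and names no precursor. It held 357 distinct read sequences and 0.175 edits per read, near the 0.160 of mir-301a, and had 0.207% as many reads as mir-301a. The next deepest of the other SKA2 stacks had 8 reads. Stacks within 1000 bases of a member were also summed over both strands, leaving out the members themselves. These held 20 reads around mir-130a, 7 around mir-130b, 21 around mir-301b and 2 around mir-454. The windows of mir-130b and mir-301b overlap, so a stack may be counted for both. The pooled list does not show whether the reads of the 103-base stack came from AGO3, AGO2 or another library.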
